A study of Mus musculus with 10 samples.

Results

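The cytosolic heat shock chaperones are described here by 10 genes, taken as the rows of the deposited expression table whose symbol is Hspa1a, Hspa1b, Hspa8, Dnajb1, Bag3, Hsph1, Hsp90aa1, Hsp90ab1, Hspb1 or Hsf1. Each symbol matched 1 row, so that 10 of 26335 rows were followed. The RNA came from 1 of the study's mSCLC lines, which are murine cells of small cell lung cancer origin, and was sequenced to ask how 48 h with stiripentol, an antiseizure drug, alters gene expression. The control group held 5 libraries from cells kept with DMSO, the solvent, and the stiripentol group held 5 libraries from cells kept with 250 μM stiripentol. All cells of both groups grew in RPMI medium with fetal serum, at 37°C and 5% CO2. All libraries came from this 1 line, and the sample records do not say whether the libraries of a group were separate cultures, so the p-values measure the spread between these libraries only. Values are log2 CPM, where CPM is the number of reads of a gene relative to all reads in that library, and a change is the stiripentol mean minus the control mean on that scale.

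Cytosolic chaperones bind unfolded protein and help it to fold. Hsp70 proteins do so in cycles of ATP hydrolysis, in which J-domain proteins deliver the client, nucleotide exchange factors release it, and Hsp90 takes over some clients for their final maturation. Heat and other proteotoxic stress free the transcription factor HSF1 from chaperones, and HSF1 then binds inverted repeats of the bases GAA, called heat shock elements, upstream of the inducible members of the family.

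The upstream sequences of both inducible Hsp70 genes are shown because reads of these genes rose with stiripentol, and because the genes are near-identical copies whose reads can be confused. The runs are the 250 bases before the RefSeq start on GRCm38.p6, both on the minus strand, at chr17:34972157-34972406 for Hspa1a and chr17:34959239-34959488 for Hspa1b, with capitals on each match to GAANNTTC or TTCNNGAA, 2 facing GAA units.
Hspa1a: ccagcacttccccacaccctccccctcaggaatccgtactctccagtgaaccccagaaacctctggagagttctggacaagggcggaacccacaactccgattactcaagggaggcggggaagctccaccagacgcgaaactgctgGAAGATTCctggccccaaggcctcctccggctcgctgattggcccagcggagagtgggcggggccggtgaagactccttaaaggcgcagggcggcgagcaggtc
Hspa1b: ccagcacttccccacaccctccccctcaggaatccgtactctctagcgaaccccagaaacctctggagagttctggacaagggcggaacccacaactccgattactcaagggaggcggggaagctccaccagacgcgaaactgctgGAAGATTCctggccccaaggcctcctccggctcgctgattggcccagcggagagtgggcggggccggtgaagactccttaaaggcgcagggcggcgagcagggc
Each letter pattern is its own reverse complement, so both strands were searched at once, and matches of the patterns can overlap. Both runs held 1 match, which began at position -104 from the start. Over 300 bases, from 250 bases before to 50 bases past the start, the sequences were identical at 98.67% of positions and differed at 4, which were C44T, T47C, T249G and C276T, with the base of Hspa1a first and positions counted from 1 at the 5′ end. A match of this kind was held by 15.1% of the 32851 RefSeq promoters of the same length.

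Shorter windows of 30 bases are given for Hspb1, Bag3 and Hsph1, the other members with a match, to show where these letters lie. They come from the same RefSeq table, at chr5:135887791-135887820 (-117) and chr5:135887811-135887840 (-97) on the plus strand for Hspb1, chr7:128523603-128523632 on the plus strand for Bag3, and chr5:149636351-149636380 and chr5:149636280-149636309 on the minus strand for Hsph1.
Hspb1, first match: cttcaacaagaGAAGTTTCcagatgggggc
Hspb1, the other match: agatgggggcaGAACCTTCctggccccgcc
Bag3: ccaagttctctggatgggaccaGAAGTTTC
Hsph1, upstream match: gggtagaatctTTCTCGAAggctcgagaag
Hsph1, downstream matches: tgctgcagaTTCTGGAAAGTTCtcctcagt
Hspb1 held 2 matches before its start, and the match of Bag3 began at position 43 past the start of Bag3. Hsph1 held 3 matches, 2 of which overlapped to give a run of 3 units, a feature of 0.597% of all promoters. The windows of Dnajb1 held none of these letters, which says nothing about binding outside them. The table matched 6 of the 10 members, and Hspa8, Hsp90aa1, Hsp90ab1 and Hsf1 had no entry. A match describes letters only.

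Recovered totals were 22375625 to 65299372 reads per control library and 55015760 to 60670901 reads per stiripentol library. Across all genes, each group split into 2 clusters of libraries, controls 1 to 3 with stiripentol 3 to 5 and controls 4 and 5 with stiripentol 1 and 2, set against each other by the replicate numbers of the study's own gene table. Library numbers here are those of the sample records and of the deposited columns, and that table numbers the controls differently, with its controls 1 and 2 being controls 4 and 5 here. Pearson's r across genes was 0.983 to 0.997 within a cluster and 0.920 to 0.939 between the clusters of a group. Controls 1 to 3 also carried another value for genes without reads (-4.82) than the other 7 libraries (-4.74). The table thus seems to join 2 normalization sets, told apart here only by that value. The members are given below over all libraries, within each cluster and, for some, within 1 set. That last fit sets controls 4 and 5 against treated libraries of both clusters, so it cannot tell set from cluster. Of the lists that describe the cells, 3 of 11 neuroendocrine genes passed the filter on low values, and the summed level was 96.5 to 132 CPM in control and 128 to 164 CPM in stiripentol libraries, most of it Ncam1. Epithelial genes (2 of 6 past the filter, Krt8 and Krt18, with Epcam at 1 read in all) summed to 2278 to 2598 CPM in control and 1544 to 2145 CPM in stiripentol libraries. Fibroblast genes (6 of 7) summed to 404 to 696 CPM against 152 to 185 CPM, leukocyte genes (1 of 6, Cd68, with Ptprc at 7 reads in all controls and 0 in all treated libraries) to 4.27 to 18.3 CPM against 55.3 to 103 CPM, tuft cell genes (1 of 5, Avil, whereas Pou2f3 went from 596 reads in all controls to 45 in all treated libraries and Trpm5 from 59 to 16) to 1.93 to 6.96 CPM against 25.2 to 59.7 CPM, and endothelial genes (0 of 3) to 0.251 to 0.638 CPM against 0.276 to 1.07 CPM. The part of these lists in the results below was not tested, and in bulk RNA fewer cells of a type and less RNA per cell cannot be told apart.

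To determine which chaperone genes changed with stiripentol, the groups were compared with limma in the 12306 genes with a mean above 0 log2 CPM, and a gene was called at a Benjamini-Hochberg adjusted p under 0.05. Of the 9 members tested, 3 rose (Hspa1b, Bag3 and Hsf1), 0 fell and 6 were not called. Among all tested genes, 13.6% were called higher and 14.1% lower. The 9 changes had a median of 0.32, beside -0.06 over all tested genes. At an unadjusted p under 0.05, the members numbered 3 higher and 0 lower, and the share of all tested genes at that cut is not given here. The abundant chaperone genes Hspa8, Hsp90aa1 and Hsp90ab1 had changes between -0.15 and 0.03, none of them called. Hspa1a lay below the filter, with a mean log2 CPM of -0.59, and was examined in a fit without it. All 5 stiripentol libraries lay above all 5 controls in 3 of the 9 tested members, as in 13.0% of all tested genes, and also in Hspa1a.

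**Figure D1:**
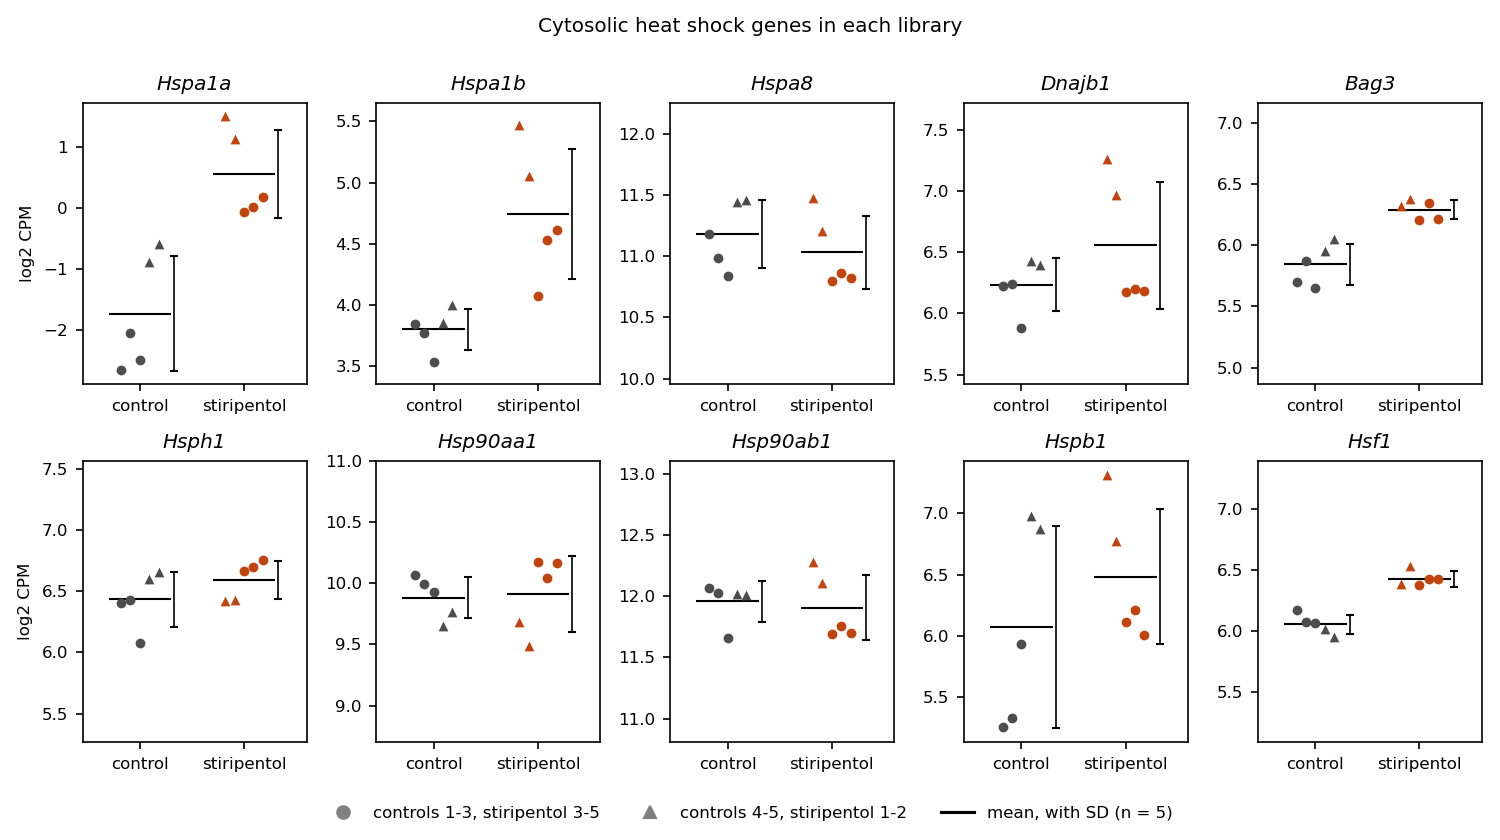
Log2 CPM of each of the 10 genes in every library, with a panel per gene, control points in grey and stiripentol points in orange, circles for controls 1 to 3 and stiripentol 3 to 5, and triangles for controls 4 and 5 and stiripentol 1 and 2. Lines are means with SD bars (n = 5), and the vertical range differs between panels. The groups do not overlap for Hspa1a, Hspa1b, Bag3 and Hsf1, whereas the spread of Hspb1 in control (5.25 to 6.98) follows the symbols.

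The inducible Hsp70 genes, whose products are the stress-induced form of the chaperone, gave the largest changes of the set. Hspa1b (chromosome 17, 34956436 to 34959238, minus strand, GRCm38) stood at 3.84, 3.77, 3.54, 3.85 and 4.00 log2 CPM in controls 1 to 5. In stiripentol libraries 1 to 5 it stood at 5.47, 5.05, 4.07, 4.53 and 4.61. The groups did not overlap, with stiripentol 3 the lowest treated library and stiripentol 1 and 2, of the same cluster, the highest. The change was 0.95 (SE 0.24, limma adjusted p = 0.0156), a 1.93-fold rise with a 95% interval of 1.34 to 2.78. Among the libraries of 1 normalization set, stiripentol 1 to 5 against controls 4 and 5, the change was 0.82 and was not called (adjusted p = 0.153). These controls are of 1 cluster and the treated libraries of both, so this fit mixes treatment with cluster.

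Hspa1a (chromosome 17, 34969190 to 34972156, minus strand) had few reads, with 8, 12, 9, 32 and 14 reads in controls 1 to 5 and 171, 124, 53, 58 and 60 reads in stiripentol libraries 1 to 5. Its log2 CPM was -2.66, -2.04, -2.50, -0.89 and -0.59 in control and 1.51, 1.12, -0.07, 0.01 and 0.17 in stiripentol libraries. No control reached any treated library, and controls 4 and 5 were the highest of their group, as stiripentol 1 and 2 were of theirs. Without the filter, a fit in which 6.47% of 26335 genes were called higher, the change was 2.29 (SE 0.53, limma adjusted p = 0.0207), 4.88-fold with an interval of 2.16 to 11.1. The call was lost without control 1, 2 or 3 or stiripentol 2 (adjusted p = 0.0526, 0.0527, 0.0512 and 0.0526), and within 1 normalization set (change 1.29, adjusted p = 0.230). The size also depends on what is added before the logarithm, and with 1 CPM added it was 0.93.

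The genes of this tandem pair share sequence. Of all windows of 100 bases in their annotated transcripts, 48.6% of those of Hspa1a and 49.9% of those of Hspa1b occur exactly in transcripts of another gene, mostly in each other, and exons of Gm20481 lie over 564 bases of Hspa1a on the opposite strand. These windows cover whole transcripts, whereas the methods name a 3′ mRNA kit and the sample records total RNA. How many reads came from shared stretches is thus not known. How the authors counted reads that fit both genes, and whether they used strand, is not given in the sources used here, so the split between them is uncertain. Adding the reads of both genes removes the split, though not a loss of reads that fit both. The summed level rose by 0.99 (SE 0.24, limma adjusted p = 0.0140), 1.99-fold. Hspa1a took 2.14% ± 1.34 (SD, n = 5) of the summed reads in control and 5.11% ± 0.94 in stiripentol libraries, with ranges of 0.850% to 3.77% and 4.04% to 6.06% that did not overlap.

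**Figure D2:**
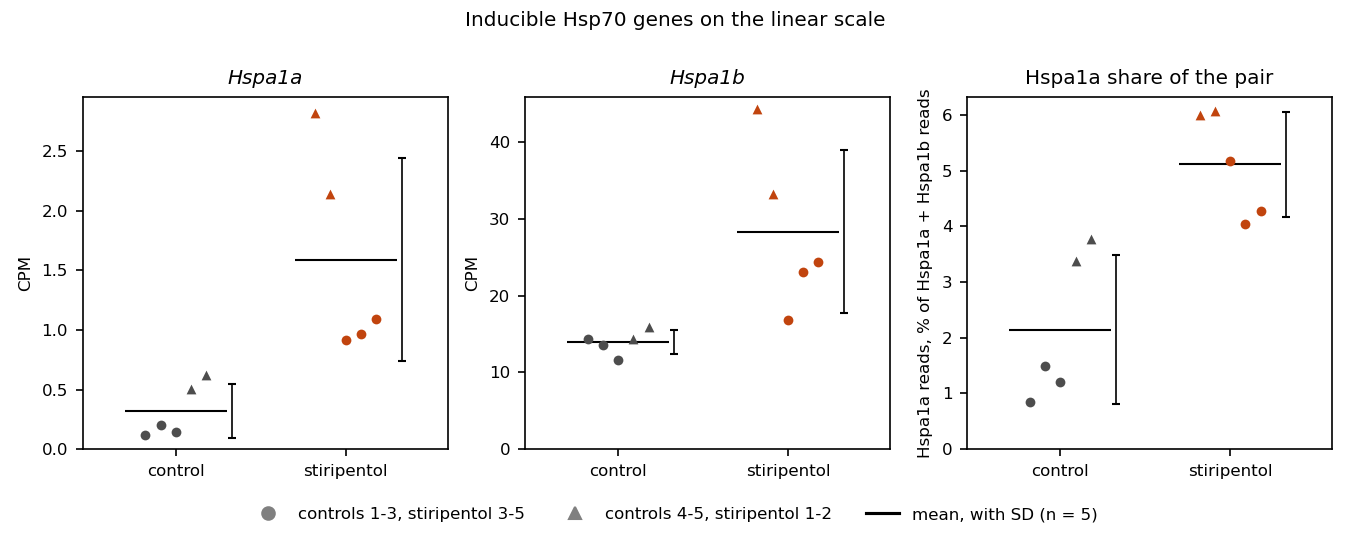
CPM of Hspa1a and of Hspa1b on a linear scale, and reads of Hspa1a as a percent of the reads of both genes, in each library, with means and SD bars (n = 5) and the symbols of the library clusters. Mean CPM was 0.320 and 1.59 for Hspa1a and 14.0 and 28.3 for Hspa1b in control and stiripentol libraries, and stiripentol 1 and 2 are the highest treated points in all panels.

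Hspa8, which encodes the constitutive cytosolic Hsp70 (chromosome 9, 40800984 to 40810087, plus strand), moved apart from the inducible genes. Its log2 CPM was 11.18, 10.98, 10.84, 11.45 and 11.46 in controls 1 to 5 and 11.47, 11.21, 10.80, 10.86 and 10.82 in stiripentol libraries 1 to 5. The groups overlapped, and in each group the libraries of the smaller cluster were the highest. The change was -0.15 (SE 0.18, adjusted p = 0.542), with an interval from -0.54 to 0.24. Within each library, Hspa1b minus Hspa8 on the log2 scale was -7.38 ± 0.15 (SD, n = 5) in control and -6.29 ± 0.27 in stiripentol libraries. These ranges, -7.60 to -7.21 and -6.73 to -6.01, did not overlap, so the reads of the inducible gene grew relative to those of the constitutive gene in every treated library. Exact windows of other transcripts made up 28.2% of Hspa8, among them those of Gm15459, a pseudogene with 9103 control and 9394 stiripentol reads beside 626070 and 623515 of Hspa8.

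The partners of Hsp70 differed among themselves. Bag3, a nucleotide exchange factor that links Hsp70 to small heat shock proteins and to selective autophagy (chromosome 7, 128523616 to 128546981, plus strand), stood at 5.70, 5.87, 5.65, 5.95 and 6.05 log2 CPM in controls 1 to 5. In stiripentol libraries 1 to 5 it stood at 6.32, 6.38, 6.20, 6.34 and 6.21. Every treated library was above every control, with the treated libraries in a narrow range. The change was 0.45 (SE 0.11, limma adjusted p = 0.0122) with a 95% interval of 0.21 to 0.68, 1.36-fold on the linear scale. Within 1 normalization set it was 0.29 and was not called (adjusted p = 0.0859). Relative to Hspa8 in the same library, Bag3 was at -5.34 ± 0.17 in control and -4.74 ± 0.26 in stiripentol libraries on the log2 scale.

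Dnajb1 encodes the main inducible J-domain protein, which stimulates ATP hydrolysis by Hsp70 (chromosome 8, 83608193 to 83612653, plus strand). Its log2 CPM was 6.23, 6.24, 5.88, 6.43 and 6.39 in controls 1 to 5 and 7.26, 6.97, 6.18, 6.20 and 6.18 in stiripentol libraries 1 to 5. Stiripentol 1 and 2 were above all controls, while stiripentol 3 to 5 lay among them. Over all libraries the change of 0.32 was not called (SE 0.23, adjusted p = 0.305, interval -0.18 to 0.83).

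Hsph1, an Hsp110 that releases nucleotide from Hsp70 (chromosome 5, 149614287 to 149636376, minus strand), showed the opposite split. Its log2 CPM was 6.41, 6.43, 6.08, 6.60 and 6.66 in controls 1 to 5 and 6.42, 6.43, 6.67, 6.70 and 6.75 in stiripentol libraries 1 to 5. Here stiripentol 3 to 5 were above all controls, and stiripentol 1 and 2 lay below controls 4 and 5. The change of 0.16 was not called (SE 0.13, adjusted p = 0.377, interval -0.13 to 0.44).

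The Hsp90 genes, which encode the stress-responsive (Hsp90aa1) and the constitutive (Hsp90ab1) cytosolic form, had close means in both groups. Hsp90aa1 (chromosome 12, 110690605 to 110702728, minus strand) stood at 10.07, 10.00, 9.93, 9.65 and 9.77 log2 CPM in controls 1 to 5 and at 9.68, 9.48, 10.17, 10.04 and 10.17 in stiripentol libraries 1 to 5. Hsp90ab1 (chromosome 17, 45567775 to 45573271, minus strand) stood at 12.07, 12.03, 11.66, 12.02 and 12.01 in controls 1 to 5 and at 12.28, 12.11, 11.69, 11.76 and 11.70 in stiripentol libraries 1 to 5. Both genes overlapped between the groups, and their treated clusters lay on opposite sides, with stiripentol 1 and 2 lowest for Hsp90aa1 and highest for Hsp90ab1. The change was 0.03 for Hsp90aa1 (SE 0.16, adjusted p = 0.908) with an interval of -0.32 to 0.37, and -0.05 for Hsp90ab1 (SE 0.15, adjusted p = 0.827) with an interval of -0.39 to 0.29. Neither direction held under every scaling, since Hsp90aa1 was at -0.07 after quantile normalization and Hsp90ab1 at 0.03 after median-of-ratios or upper-quartile scaling. The log2 difference between the genes within a library ran from -2.36 to -1.73 in control and from -2.63 to -1.52 in stiripentol libraries, which overlapped. Of the transcript windows of Hsp90aa1, 38.0% occur in other transcripts, chiefly Gm12346, which had 2838 control and 2607 stiripentol reads beside 262121 and 284507 of Hsp90aa1.

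Reads of the set were dominated by its most abundant genes. Hspa8, Hsp90aa1 and Hsp90ab1 held 95.1% ± 0.57 (SD, n = 5) of the reads of the 10 genes in control and 93.5% ± 0.15 in stiripentol libraries. The summed level of all 10 was 7679 ± 793 CPM in control and 7494 ± 1125 CPM in stiripentol libraries, which overlapped.

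Hspb1 encodes Hsp25, a small heat shock protein that holds unfolded clients without ATP (chromosome 5, 135887919 to 135889563, plus strand). Its log2 CPM was 5.25, 5.33, 5.93, 6.98 and 6.88 in controls 1 to 5 and 7.31, 6.78, 6.11, 6.21 and 6.01 in stiripentol libraries 1 to 5. In control, the libraries of the smaller cluster were above the others by 1.43, a distance larger than the difference between the groups. The change of 0.41 was not called (SE 0.39, adjusted p = 0.445, interval -0.45 to 1.27), and within 1 normalization set it was -0.45. Windows shared with the processed copy Hsp25-ps1 made up 44.0% of Hspb1, and that copy had 606 control and 754 stiripentol reads beside 19378 and 27967 of Hspb1.

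Hsf1, the transcription factor that drives the heat shock response (chromosome 15, 76477422 to 76501913, plus strand), had the smallest limma p of the set. Its log2 CPM was 6.17, 6.07, 6.07, 6.01 and 5.95 in controls 1 to 5 and 6.38, 6.54, 6.37, 6.43 and 6.42 in stiripentol libraries 1 to 5. All treated libraries were above all controls, and the spread within each group was the narrowest among the 10 genes. The change was 0.37 (SE 0.09, limma adjusted p = 0.0109), 1.30-fold with an interval of 1.13 to 1.48, and it was called within 1 normalization set too (0.45, adjusted p = 0.0165). RNA of Hsf1 does not report the activity of the protein, which is set mainly after translation. Among tested genes outside the set, those most like Hsf1 by Pearson's r over the 10 libraries were Srprb (0.974), Nfx1 (0.968), Pi4k2a (0.967), Ankrd13b (0.965) and Rbm15 (0.965), a description only, since the libraries share groups and clusters.

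To see whether the members moved alike in both library clusters, each cluster was fitted alone. In controls 4 and 5 against stiripentol 1 and 2, where 25.7% of tested genes were called higher, 4 of 9 members rose. These were Hspa1b by 1.34 (limma adjusted p = 1.50e-05), Dnajb1 by 0.71 (adjusted p = 0.000265), Hsf1 by 0.48 (adjusted p = 0.00227) and Bag3 by 0.35 (adjusted p = 0.0124). In controls 1 to 3 against stiripentol 3 to 5, where 37.7% were called higher, 5 of 9 members rose. These were Bag3 by 0.51 (adjusted p = 0.000877), Hsf1 by 0.31 (adjusted p = 0.00258), Hspa1b by 0.69 (adjusted p = 0.00554), Hsph1 by 0.40 (adjusted p = 0.00858) and Hspb1 by 0.61 (adjusted p = 0.0155). The 3 members called over all libraries were thus called in both clusters, and no member was called lower in either. The clusters are parts of the same libraries, so this is no separate support. The matching shares over all tested genes are not given here. For Hspa1a, the difference of means was 2.06 in the smaller cluster and 2.44 in the larger.

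The difference between the clusters was tested with an interaction term, which 45.3% of tested genes passed with the more positive change in the cluster of 3 against 3 and 18.1% with the more positive change in that of 2 against 2. Dnajb1 (-0.64, SE 0.17, limma adjusted p = 0.00609) and Hspa1b (-0.65, SE 0.25, adjusted p = 0.0380) rose more in the cluster of 2 against 2. Hsph1 differed the other way (0.60, SE 0.14, adjusted p = 0.00356), with -0.20 in the cluster of 2 against 2. The Hsp90 genes did not pass this test, at 0.26 for Hsp90aa1 (adjusted p = 0.0883) and -0.38 for Hsp90ab1 (adjusted p = 0.0713). What distinguishes the clusters is not given in the sources used here.

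**Figure D3:**
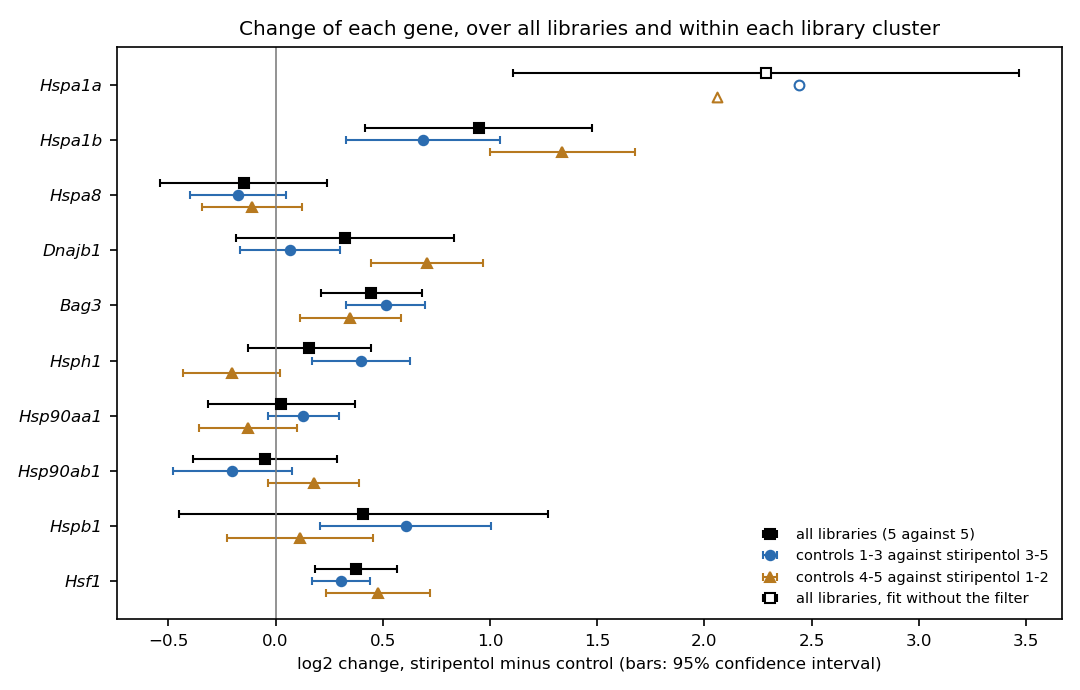
Log2 change of each gene (stiripentol minus control) with 95% confidence intervals from limma, over all libraries (squares), in controls 1 to 3 against stiripentol 3 to 5 (circles) and in controls 4 and 5 against stiripentol 1 and 2 (triangles). Open symbols mark Hspa1a, fitted without the filter, with plain differences of means for its clusters. Hspa1b, Bag3 and Hsf1 lie above 0 in all 3 comparisons, whereas Dnajb1 rises with the triangles and Hsph1 with the circles.

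The wider cytosolic chaperone network was described by 8 lists of 76 genes outside the set, of which 68 were tested. Of these, 14 rose (20.6%, beside 13.6% of all tested genes), 5 fell (7.35%, beside 14.1%) and 49 were not called, with a median change of 0.11. The counts of single lists below are to be read against the same background of 13.6% higher and 14.1% lower. Hsp70 and Hsp110 relatives counted 2 higher and 0 lower of 5, led by Hspa14 (0.87, SE 0.21, adjusted p = 0.0128), a ribosome-associated Hsp70. J-domain proteins split, with 3 higher and 4 lower of 14. Dnajc2, which acts with Hspa14 on the ribosome, had the largest rise of that list (0.66, SE 0.17, adjusted p = 0.0168), and Dnajb14, a J-domain protein anchored in the endoplasmic reticulum membrane, the largest fall (-0.93, SE 0.28, adjusted p = 0.0299). Exchange factors and other partners of Hsp70 counted 3 higher and 1 lower of 10, with 1 higher without stiripentol 2 and after median-of-ratios or upper-quartile scaling. Sqstm1, the autophagy receptor p62, rose by 1.06 (SE 0.20, adjusted p = 0.00448), and Bag2, an exchange factor that inhibits the ubiquitin ligase Stub1, fell by 1.20 (SE 0.32, adjusted p = 0.0201).

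Of 17 tested co-chaperones of Hsp90, 1 was called, Stip1, which bridges Hsp70 and Hsp90 (0.35, SE 0.12, adjusted p = 0.0486), and the list had a median of 0.11. That call was lost without control 1, 2, 3 or 5 or stiripentol 3, 4 or 5, each left out alone. It was also lost without the filter, with robust eBayes and with the replicate numbers as a block. The chaperonin TRiC counted 2 of 8 subunits higher, with Cct4 at 0.51 (SE 0.11, adjusted p = 0.00783), and prefoldin 1 of 6, which was Pfdn1 at 0.64 (SE 0.11, adjusted p = 0.00287). Among 5 tested small heat shock proteins 1 rose, Hspb11 (1.06, SE 0.20, adjusted p = 0.00419), whose product is known as a part of the intraflagellar transport complex of cilia. Heat shock factors and their binding partner counted 1 of 4 higher, Hsf2 (0.50, SE 0.13, adjusted p = 0.0202). Without stiripentol 5, prefoldin counted 2 higher. No gene of these 5 lists was called lower in the main fit over all libraries. However, 1 co-chaperone of Hsp90 was called lower without stiripentol 4 or 5 and after each of the 3 other scalings. The count was also 1 with limma voom, with the replicate numbers as a block and with a cluster term. The cluster term also called 1 TRiC subunit lower.

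Other known targets of HSF1, some of which stand in the lists above as well, counted 6 higher and 3 lower of 23, with a median of 0.17. The largest rise was that of Atf3 (2.06, SE 0.36, adjusted p = 0.00271), a stress-induced transcription factor, and the largest fall that of Ier5 (-0.91, SE 0.14, adjusted p = 0.00182), an immediate early gene whose product acts on HSF1. Since handling of cells can induce heat shock genes, 14 immediate early genes were listed, of which 13 were tested. Of these, 10 fell, led by Egr1 (-4.54, SE 0.69, adjusted p = 0.00146), and 1 rose (Atf3), with a median of -1.21. The number that fell was 5 without control 3 and 6 without control 1 or stiripentol 2. All tested genes called lower numbered 1276, 1208 and 1171 without control 3, control 1 and stiripentol 2, against 1740. The part of handling in the changes of the members was not tested.

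**Figure D4:**
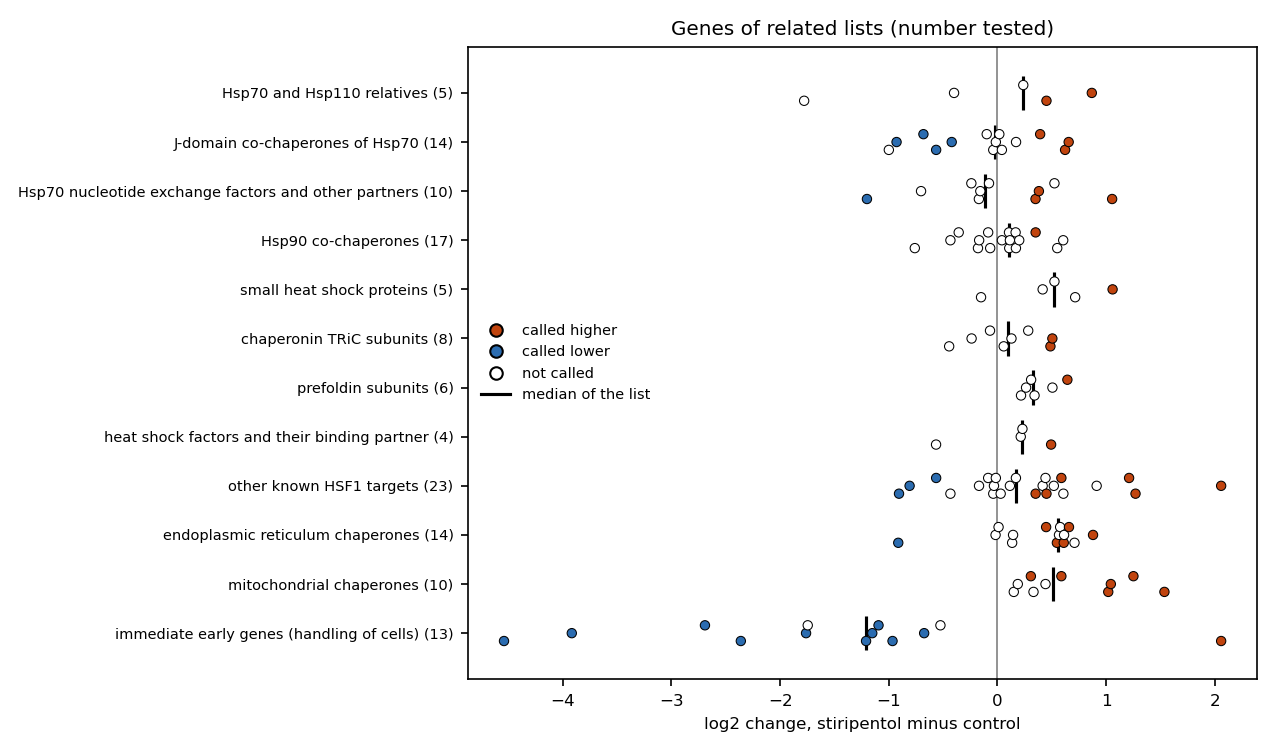
Log2 change (stiripentol minus control, limma over all libraries) of each tested gene in 12 lists of chaperones, HSF1 targets and immediate early genes, with called genes filled in orange (higher) or blue (lower), uncalled genes open and the median of each list as a bar. Medians run from -1.21 for immediate early genes to 0.56 for chaperones of the endoplasmic reticulum, and mitochondrial chaperones all lie above 0.

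The counterparts of the members in other compartments were set beside them. In the endoplasmic reticulum, Hspa5, the Hsp70 of that compartment, rose by 0.88 (SE 0.24, limma adjusted p = 0.0214), and Hsp90b1, its Hsp90, was at 0.71 and not called (SE 0.26, adjusted p = 0.0640). In mitochondria, the Hsp70 gene Hspa9 rose by 1.25 (SE 0.23, adjusted p = 0.00312) and the Hsp90 gene Trap1 by 0.31 (SE 0.08, adjusted p = 0.0187). The mitochondrial chaperonin genes stood at 0.59 for Hspe1, which was called (SE 0.17, adjusted p = 0.0286), and 0.44 for Hspd1, which was not (SE 0.27, adjusted p = 0.227). As lists, endoplasmic reticulum chaperones counted 5 higher and 1 lower of 14 (median 0.56), with Hspa5 the largest rise and Dnajc10, a disulfide reductase, the only fall (-0.91, SE 0.27, adjusted p = 0.0314). The number higher was 2 without control 1, control 2 or stiripentol 2, and the fall of Dnajc10 was not called when any 1 of the controls, stiripentol 1 or stiripentol 2 was left out, nor without the filter. Without control 1, control 2 or stiripentol 2, all tested genes called higher numbered 1234, 1232 and 1218, against 1674. Mitochondrial chaperones counted 6 higher and 0 lower of 10 (median 0.52), led by Hscb (1.54, SE 0.26, adjusted p = 0.00233), the J-domain protein of iron-sulfur cluster assembly. The difference between these lists and the cytosolic members was not tested.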

How the data were processed

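RNA of mSCLC 2405 cells was sequenced in 5 control and 5 stiripentol libraries. The authors deposited 1 table of log2 CPM per gene and library, and their methods name GENAVi for this normalization. Their group means, p-values, q-values and fold columns were not used, and 0 columns belonged to other samples. The submitters' processing notes name the build mm10, while the aligner, counter and annotation are not given in the sources used here. The methods name a Lexogen QuantSeq 3′ mRNA kit, and the sample records name TruSeq total RNA.

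Whole reads were recovered from 100% of the values, after removal of the prior, within 0.01 read (for large values, within rounding of the file). Depth covers counting error only. The deposited log2 values were compared with limma 3.58.1 in R 4.3.3 (lmFit, eBayes with trend, no covariate) over genes with a mean log2 CPM above 0, with Benjamini-Hochberg adjustment at 0.05. Library totals, shares and summaries used Python 3.11.15, numpy 2.4.6 and pandas 2.3.3. Of the rows, 14 were named by a number and stayed in the totals and tests. Libraries were compared for copies, and the lowest chi-square per gene of any 2 of a group and cluster was 6.75, above the level of read counting alone.

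The members and lists were chosen with earlier results of these data known. Genes named were the 10 members, the called gene with the largest rise and the largest fall of each list, the 5 genes most correlated with the member of smallest p, and 6 counterparts in other compartments. Marker genes were named beside their lists. The result of 1 marker gene is not reported here. Replicate numbers of the records did not pair the libraries, with correlations of deviations from -0.240 to 0.0612. Loci and transcript windows came from GENCODE M21 on GRCm38, and promoters from RefSeq on GRCm38.p6. Alternatives were each library left out, a replicate block, a cluster term, each cluster alone, 1 mean per group and cluster, 3 scalings, other filters and pseudocounts, voom, robust eBayes and a minimum change of 1. The fit within 1 normalization set was added after seeing the data. The fit was tested on simulated data.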

Additional observations from a re-analysis of the deposited data

Results flagged for a closer look

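The change with stiripentol differed between the library clusters for 3 of the 9 members tested. The effect in controls 1 to 3 against stiripentol 3 to 5 minus that in controls 4 and 5 against stiripentol 1 and 2 was -0.648 for Hspa1b, -0.637 for Dnajb1 and 0.604 for Hsph1 on the log2 scale, each called by the interaction term in limma. Among all tested genes, 45.3% passed that term with the more positive change in the larger cluster and 18.1% in the smaller. Over both directions together, the members did not pass it more often than genes in general. Hspa1b rose in both clusters, whereas Dnajb1 was called only in the smaller cluster and Hsph1 only in the larger.

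In 2 groups of 5, 1 library lay far from the rest. Control 3 was low for Hsp90ab1, with a gap to the next library of 0.865 of the range of the group, and control 5 was low in total reads, with a gap of 0.83 of the range. Of 22 groups examined in this way, about 1.1 would be picked out by chance.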

How the results depend on the processing

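Of 248 recomputed member values, 217 kept their direction and their side of the threshold, 13 lost the call, 3 gained one and 15 turned in sign. Members called higher numbered 3, against 1 in 1 normalization set, 5 in the cluster of 3 against 3 alone and 0 with a minimum change of 1. Of all 12306 tested genes, 13.6% were called higher in the main fit. The cluster of 3 against 3 called 37.7% higher, and a minimum change of 1 left 404 genes. For 1 normalization set this share is not given here. Without each library in turn, members called higher numbered 3 to 3. All tested genes called higher then numbered 1218 to 1706, against 1674 in the main fit. Sign changes were -0.035 (1 normalization set) and -0.20 (cluster of 2 against 2) for Hsph1, -0.13 (cluster of 2 against 2) and -0.072 (quantile) for Hsp90aa1, 0.18 (cluster of 2 against 2), 0.027 (median-of-ratios) and 0.032 (upper-quartile) for Hsp90ab1, and -0.45 (1 normalization set) for Hspb1. In the fit within 1 normalization set, controls of the smaller cluster met treated libraries of both clusters. Leaving out each library gave -0.039 to 0.13 for Hsp90aa1 and -0.14 to 0.0042 for Hsp90ab1. With 1 mean per group and cluster, 2 means against 2, adjusted p was 0.573 for Hspa1b, 0.684 for Bag3, 0.701 for Hsf1 and 0.691 for Hspa1a. The median change of all tested genes was -0.06 as deposited and 0.05 after quantile normalization.

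The replicate numbers of the records did not pair the libraries. With them as a replicate block, adjusted p was 0.0507 for Hsf1 and 0.0874 for Hspa1a, and Hspa1b and Bag3 were called. Network genes called higher and lower numbered 14 and 5, against 7 and 3 with the replicate block and 23 and 11 with a cluster term, and 12 to 14 and 4 to 7 without each library in turn. All tested genes called higher and lower numbered 1674 and 1740, against 1020 and 1062 with the block, 2908 and 3336 with the cluster term, and 404 and 890 with a minimum change of 1. Without each library in turn, all tested genes called numbered 1218 to 1706 higher and 1171 to 1802 lower. The cause of these differences was not tested. Counting limits Hspa1a, with 75 reads in all controls.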
